A study of Homo sapiens with 16 samples.

Results

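The CRL4 cereblon ubiquitin ligase and the proteins that lenalidomide-class drugs direct to it were followed as 10 genes, chosen by symbol. These were the ligase genes CRBN, DDB1, CUL4A, CUL4B and RBX1 and the substrate genes IKZF1, IKZF3, CSNK1A1, GSPT1 and ZFP91. All 10 were listed among the 12592 genes of KMS12PE and the 14560 genes of KMS27, and all 10 passed the filter on low counts in both lines. The cells were 2 established human myeloma lines that carry t(11;14). The resistant populations were clones A, C and D of KMS12PE and clones B5, C1 and C5 of KMS27, each grown out of 1 drug-tolerant cell and each maintained in 100 nM venetoclax, which blocks the anti-apoptotic protein BCL2. The populations they were set against were the parental KMS12PE and parental KMS27 cells, for which no drug dose is given, so that the drug, the selection and the origin from 1 cell cannot be told apart. Each of the 8 populations had 2 libraries of poly-A RNA, numbered 1 and 3 in KMS12PE and 1 and 2 in KMS27. No label says that these were separate cultures, so p-values measure only the spread between these libraries, which may be technical.

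Cereblon, the protein of CRBN, is the substrate receptor of the ligase. DDB1 links it to the cullin scaffold, CUL4A or CUL4B, and RBX1 is the RING subunit that recruits the ubiquitin-carrying enzyme. Lenalidomide and pomalidomide bind cereblon and bring it to proteins it does not otherwise degrade, and in myeloma the loss of the transcription factors IKZF1 and IKZF3 is the main way in which these drugs act. Loss or lowering of CRBN is a known route to resistance against them. None of these cells was labelled as treated with such a drug, and protein was not measured.

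Total counts ran from 5831289 to 13674426 per library in KMS12PE and from 20257318 to 52615971 in KMS27, and the least covered of the 10 genes had 184 counts in a KMS12PE library and 699 in a KMS27 library. All 10 plasma cell markers examined were listed in both lines, with summed levels of 3550 to 4540 CPM in clones and 3980 to 4390 CPM in parental cells of KMS12PE and of 6130 to 11000 CPM in clones and 10700 to 12400 CPM in parental cells of KMS27. Of the other markers, 0 of 4 myeloid and 0 of 4 stromal markers were listed. Of 4 B cell markers none was listed in KMS12PE, and 3 were listed in KMS27 (PAX5, MS4A1 and CD79A), where their summed level was 22.4 to 36.1 CPM in clone libraries and 13.9 to 15 CPM in parental libraries. Of 5 T cell markers, CD3G was listed in KMS12PE, at 0 to 1.55 CPM in clones and 1.1 to 1.76 CPM in parental cells, and CD3E and TRAC in KMS27, where their sum was 4.91 to 12.5 CPM in clones and 9.18 to 10.4 CPM in parental cells. By single gene, the plasma cell markers CD38 (56.1 CPM in clones and 109 CPM in parental cells), MZB1 (129 CPM in clones and 269 CPM in parental cells) and JCHAIN (3330 CPM in clones and 5740 CPM in parental cells) were called lower in the mean of the KMS27 clones by the edgeR test. By clone, JCHAIN was called in C5 alone, CD38 in B5 and C5, and MZB1 in all 3. Clone C5 had 6 of 10 called lower, with CD38 at 2.54 CPM and SDC1 at 195 CPM, against 109 CPM and 367 CPM in parental KMS27. Of all tested genes, 19.7% were called in clone C5 in either direction, 21% in B5, 21.6% in C1 and 25.8% in the KMS27 mean. SDC1 was called higher in clone C1, at 497 CPM. The B cell marker PAX5 was called higher in each KMS27 clone, at 22.3 to 26.1 CPM against 14.1 CPM in parental cells, and MS4A1 in clone C5, at 9.46 CPM against 0.222 CPM in parental cells. CD3E was called higher in the KMS27 mean, at 1.6 CPM in clones and 0.585 CPM in parental cells. By clone it was called in C5 alone, at 2.92 CPM, with B5 at 0.673 CPM and C1 at 1.21 CPM. TRAC went the other way in clone B5, where it was called lower, at 4.39 CPM against 9.21 CPM in parental cells. In KMS12PE, JCHAIN was called lower in the mean, at 601 CPM in clones and 900 CPM in parental cells, and clone D had TNFRSF17 (199 CPM against 79.9 CPM in parental cells) and CD38 (509 CPM against 340 CPM in parental cells) called higher. JCHAIN was called lower in clones C (549 CPM) and D (430 CPM). CD3G was called lower in clone D, at 0.0445 CPM against 1.43 CPM in parental cells. That call rests on few reads, since 3 counts came to 0.276 and 0.462 CPM in clone D libraries and 0.473 and 0.514 CPM in parental ones. Of all genes tested in KMS12PE, 1.47% were called in the mean, 1.78% in clone C and 5.16% in clone D. The part of these markers in the results was not tested, and in bulk RNA fewer cells of a kind and less RNA per cell cannot be told apart. Levels are in CPM, a gene's counts over its library's total after TMM scaling within each line.

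Of the 10 genes, 2 passed the test when the mean of the 3 clones was set against parental cells in KMS27, where 25.8% of all genes tested passed, and 0 did in KMS12PE, where 1.47% passed. CUL4B was higher in all 6 KMS27 clone libraries, as were 16% of tested genes, and ZFP91 was lower in all 6, as were 14%. IKZF1 differed among the KMS12PE clones, where 8.22% of tested genes were called. These 3 genes lie on chromosomes X, 11 and 7, and 1 promoter of each is shown because the results turn on them. Each sequence runs from 250 bases before to 50 bases after a RefSeq transcript start on GRCh38.p14, read along the gene's strand, with motifs, in either orientation, in capitals. They are chrX:120575483-120575782 (minus strand, the outermost of 4 CUL4B starts), chr11:58578813-58579112 (plus strand, ZFP91) and chr7:50304466-50304765 (plus strand, the outermost of 3 IKZF1 starts).
CUL4B: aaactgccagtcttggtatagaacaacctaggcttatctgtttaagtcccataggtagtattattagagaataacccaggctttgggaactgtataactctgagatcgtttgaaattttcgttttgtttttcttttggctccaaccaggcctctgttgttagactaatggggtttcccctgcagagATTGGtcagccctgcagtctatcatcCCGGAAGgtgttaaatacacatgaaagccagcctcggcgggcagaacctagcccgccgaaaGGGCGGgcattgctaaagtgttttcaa
ZFP91: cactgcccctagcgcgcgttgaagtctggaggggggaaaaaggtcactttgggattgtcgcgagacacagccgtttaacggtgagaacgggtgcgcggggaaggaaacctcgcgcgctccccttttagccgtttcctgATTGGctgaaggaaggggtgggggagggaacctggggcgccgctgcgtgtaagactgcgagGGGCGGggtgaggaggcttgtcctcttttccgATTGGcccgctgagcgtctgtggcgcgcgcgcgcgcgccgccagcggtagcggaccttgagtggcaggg
IKZF1: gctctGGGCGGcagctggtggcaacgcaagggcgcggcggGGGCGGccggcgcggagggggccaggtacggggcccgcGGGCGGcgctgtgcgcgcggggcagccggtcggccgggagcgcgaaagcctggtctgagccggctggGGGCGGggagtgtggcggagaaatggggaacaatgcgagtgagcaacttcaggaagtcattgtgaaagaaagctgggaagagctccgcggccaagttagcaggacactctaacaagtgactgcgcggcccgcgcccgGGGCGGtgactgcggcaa
The motifs searched, on both strands, were the ETS core CCGGAAG, the GC box GGGCGG, the CCAAT box, the E box CACGTG, the CRE TGACGTCA, the palindromic NRF1 motif (by name) and the TATA motif TATAAA. The CUL4B window held 1 ETS core, 1 GC box and 1 CCAAT box, the ZFP91 window held 1 GC box and 2 CCAAT boxes, and the IKZF1 window held 5 GC boxes and none of the others. Among 35116 promoters of the same length, 10.3% held an ETS core, 45% a GC box and 34.6% a CCAAT box. A match describes the letters of the window, and counts per gene do not say which start was used. Of the 10 genes, 9 were matched in the promoter table, all but IKZF3.

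CRBN, the drug receptor itself, did not pass the test in any clone of either line. Its level was 34.6 and 35.9 CPM in KMS12PE clone A, 40.5 and 34.2 CPM in clone C and 38.5 and 41.0 CPM in clone D, against 34.6 and 44.6 CPM in parental KMS12PE. In KMS27 it was 34.0 and 37.2 CPM in clone B5, 36.5 and 30 CPM in clone C1 and 32.3 and 31.6 CPM in clone C5, against 29.5 and 34.4 CPM in parental KMS27. The clone and parental libraries overlapped in both lines, and the parental libraries of KMS12PE alone differed by 1.29-fold. The mean of the 3 clones minus parental was -0.08 on the log2 scale in KMS12PE (95% CI -0.35 to 0.18, edgeR adjusted p = 0.922) and, for KMS27, 0.07 (95% CI -0.17 to 0.32, adjusted p = 0.67). Single clones ranged from -0.17 (clone A) to 0.0055 (clone D) in KMS12PE and from 0.0019 (clone C5) to 0.16 (clone B5) in KMS27. The intervals of the means therefore reach down to 0.783 times the parental level in KMS12PE and 0.886 times in KMS27. The response in KMS12PE minus that in KMS27 was -0.15 (95% CI -0.50 to 0.20, adjusted p = 0.608). CRBN lies on chromosome 3 at 3144628 to 3179727 (minus strand, GRCh38) and overlaps TRNT1 on the other strand. The sources used here do not give strandedness, so reads of overlapping genes cannot be told apart.

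**Figure D1:**
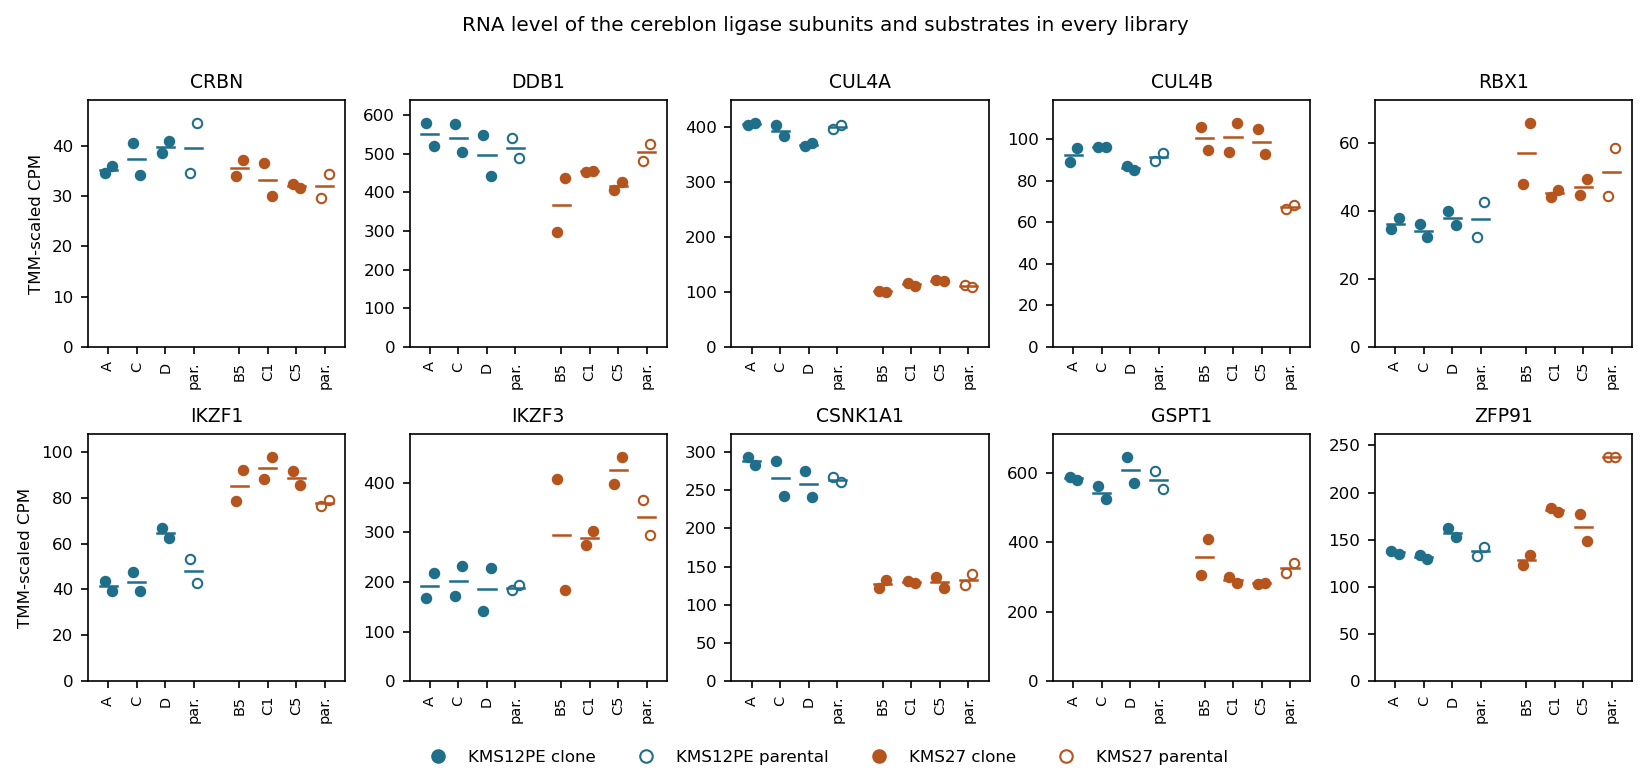
Level of each of the 10 genes in all 16 libraries, in CPM on the TMM-scaled total of each line, with the populations along the horizontal axis (par., parental). Filled points are clone libraries, open points parental libraries and bars the population mean of 2 libraries. CUL4B lies at 92.7 to 108 CPM in KMS27 clones and 66.6 and 68.5 CPM in parental KMS27, and ZFP91 at 123 to 184 CPM in KMS27 clones and 238 CPM in both parental libraries.

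DDB1, the adaptor, did not pass the test in KMS27. All 6 clone libraries lay below both parental libraries, as did those of 14% of the 14088 genes tested. DDB1 was at 297 and 438 CPM in clone B5, 454 and 456 CPM in clone C1 and 406 and 427 CPM in clone C5, against 482 and 525 CPM in parental KMS27. The 2 libraries of clone B5 differed by 1.48-fold, more than any clone mean differed from the parental mean. The mean difference was -0.29 (SE 0.14, adjusted p = 0.163), and clone B5 had the furthest value, -0.45 (adjusted p = 0.102). Without the second library of clone B5 the mean was -0.39 (adjusted p = 0.00387) and clone B5 stood at -0.76 (adjusted p = 0.00129), in a fit that called 33.6% of genes in the mean and 21% in clone B5. With DESeq2, clone B5 had an adjusted p of 0.0441, in a test that called 22.3% of genes. In KMS12PE the DDB1 mean difference was 0.04 (95% CI -0.20 to 0.28), with 443 to 581 CPM in clones and 489 to 541 CPM in parental cells. The difference between the responses of the lines was 0.34 (95% CI -0.08 to 0.76, adjusted p = 0.275, and 0.039 without the second library of clone B5, where 17.1% of genes were called).

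The cullin scaffolds parted in KMS27. CUL4B was at 106 and 94.9 CPM in clone B5, 93.8 and 108 CPM in clone C1 and 105 and 92.7 CPM in clone C5, against 66.6 and 68.5 CPM in parental KMS27. All 6 clone libraries lay above both parental libraries, as did those of 16% of the 14088 genes tested. CUL4B rose in the mean of the 3 clones by 0.565 on the log2 scale (SE 0.10, 1.48-fold, adjusted p = 0.00385). It passed in every clone, with B5 at 0.57 (adjusted p = 0.0102), C1 at 0.58 (adjusted p = 0.01) and C5 at 0.55 (adjusted p = 0.0124), and 4.5% of tested genes were called higher in each of the 3 clones.

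CUL4A, the other scaffold, lies on chromosome 13 at 113208193 to 113267108 (plus strand) and overlaps PCID2 on the other strand. It was at 102 and 99.4 CPM in clone B5, 117 and 110 CPM in clone C1 and 122 and 119 CPM in clone C5, against 113 and 109 CPM in parental KMS27. Its mean difference was 0.0047 (95% CI -0.18 to 0.18, adjusted p = 0.973). Within the same libraries there were 78.2 to 104 CUL4B counts per 100 CUL4A counts in KMS27 clones and 59.1 and 62.9 in parental KMS27. That ratio was 22 to 25.1 in KMS12PE clones and 22.6 and 23.1 in parental KMS12PE, where neither cullin passed. In KMS12PE the mean difference of CUL4B was 0.0021 (95% CI -0.15 to 0.16) and that of CUL4A was -0.04 (95% CI -0.19 to 0.11). The 2 genes are similar copies, and the sources used here do not say how reads that match both were counted.

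The test of the difference between the lines passed for CUL4B, with the response in KMS12PE minus that in KMS27 at -0.56 (95% CI -0.82 to -0.30, adjusted p = 0.00744, against 14.2% of 11623 genes called). The call in the KMS27 mean was lost without the first parental library (adjusted p = 0.0568). It was lost too when counts were summed per population so that the 3 clones were the replicates (0.56, adjusted p = 0.261), a setting in which 8 of 14088 genes (0.0568%) were called. The calls in single clones were lost without either parental library (adjusted p = 0.0558 to 0.0923), in clone C1 without its second library (0.0735) and in clone C5 without its first (0.107).

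The remaining genes of chromosome X moved by a similar amount to CUL4B in KMS27. Over 441 other tested genes of chromosome X the median difference between the mean of the clones and parental cells was 0.58, with 262 called higher and 10 called lower, against a median of -0.01 over 12252 placed genes. CUL4B minus that median was -0.02. By clone, B5 had a chromosome X median of 0.56, C1 of 0.59 and C5 of 0.54. Among the 27 genes within 5 Mb of CUL4B (120524609 to 120575794, minus strand) the median was 0.57, with 16 called higher and 0 lower. In KMS12PE the median of 380 other genes of chromosome X was -0.02.

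RBX1, the RING subunit (chromosome 22, 40951347 to 40973309, plus strand), did not pass in any clone. In KMS12PE it was at 32.2 to 40.1 CPM in clones and 32.3 and 42.7 CPM in parental cells, with a mean difference of -0.06 (95% CI -0.34 to 0.22). In KMS27 it was at 44.2 to 66.0 CPM in clones and 44.5 and 58.4 CPM in parental cells, with a mean difference of -0.06 (95% CI -0.38 to 0.26). The second library of clone B5, at 66.0 CPM, was the highest of the line.

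**Figure D2:**
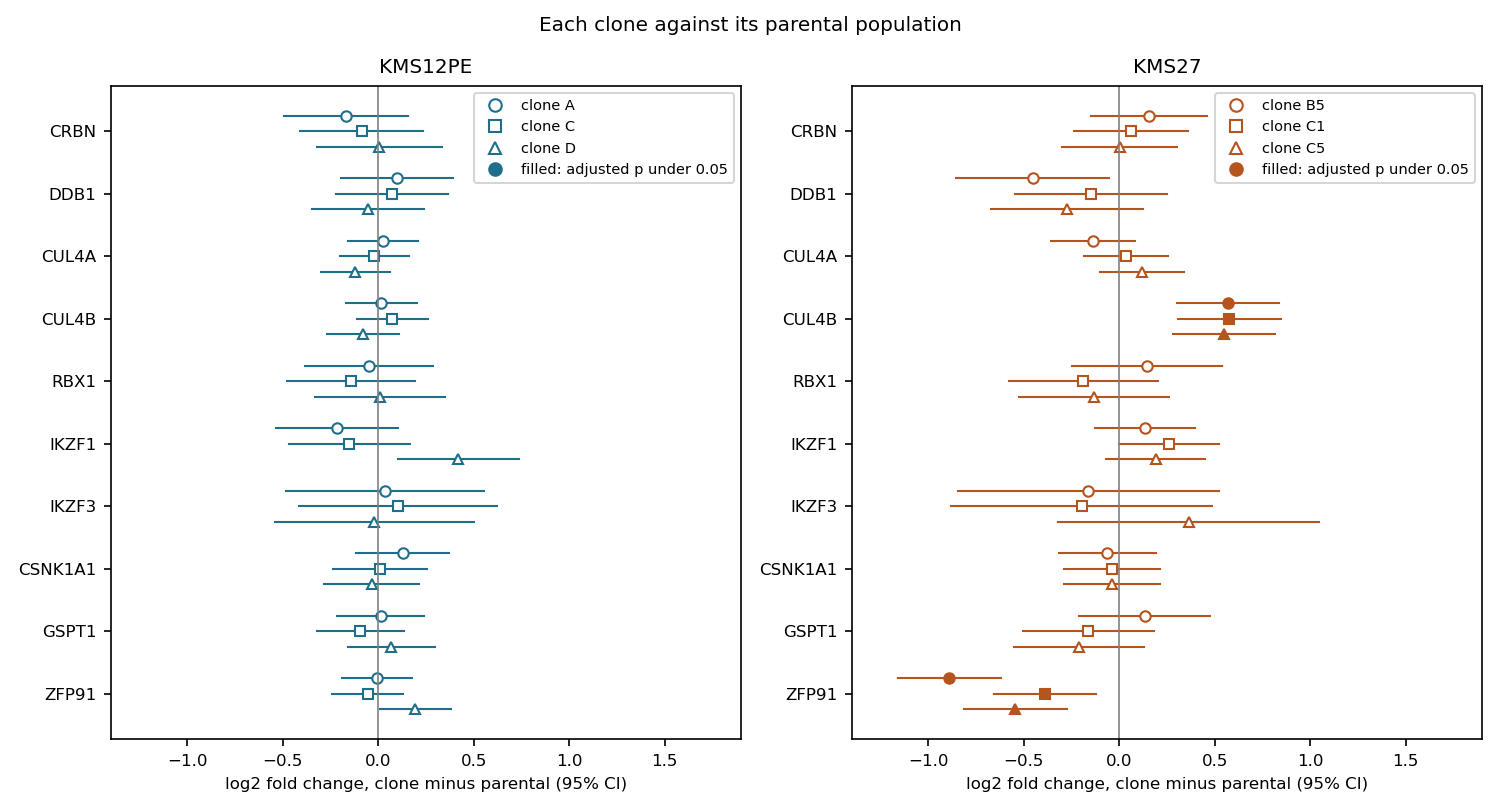
Difference of each clone from its parental population for the 10 genes, on the log2 scale with 95% confidence intervals, in KMS12PE (left) and KMS27 (right). Filled symbols mark an edgeR adjusted p under 0.05. These are CUL4B, at 0.55 to 0.58, and ZFP91, at -0.89 to -0.39, in the 3 KMS27 clones.

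Among the substrates, ZFP91, a zinc-finger protein degraded in the presence of lenalidomide and pomalidomide, fell in the KMS27 clones. It was at 123 and 134 CPM in clone B5, 184 and 179 CPM in clone C1 and 177 and 149 CPM in clone C5, against 238 CPM in each parental library. Every clone library lay below both parental libraries, as did those of 14% of tested genes. ZFP91 fell in the mean of the 3 clones by 0.61 on the log2 scale (SE 0.09, 0.656 times the parental level, adjusted p = 0.00197). With CUL4B it made 2 of 10 genes called in the mean contrast of KMS27, where 25.8% of all tested genes were called. It passed in every clone, with B5 at -0.89 (adjusted p = 0.00131), C1 at -0.39 (adjusted p = 0.046) and C5 at -0.54 (adjusted p = 0.0131), and 3.73% of tested genes were called lower in each of the 3 clones. In each single clone, CUL4B and ZFP91 were the 2 of 10 genes called, while the tested genes called came to 21% for B5, 21.6% for C1 and 19.7% for C5.

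The KMS27 clones also differed among themselves in ZFP91, which was lower in clone B5 than in clone C1 by 0.50 (SE 0.12, adjusted p = 0.0297, with 11.3% of genes called between these clones). The joint test among the 3 clones gave an adjusted p of 0.0509 for ZFP91, with 0 of 10 genes called against 13.7% of genes, while DESeq2 gave 0.0055 and called 19.1% of genes. ZFP91 was the 1 of 10 genes with an unadjusted edgeR p under 0.05 in that joint test. ZFP91 minus parental kept its call in the mean without any 1 library and in clone B5 without any 1 library. ZFP91 lost its call in the mean when counts were summed per population (-0.59, adjusted p = 0.361), where 8 of 14088 genes were called. The clone C1 call was lost without either parental library, either clone C1 library or either clone C5 library (adjusted p = 0.0652 to 0.218), and was at 0.0501 with no filter on low counts. The clone C5 call was lost without either parental library (0.082 and 0.0812) or the second clone C5 library (0.125), and the difference between clones B5 and C1 was lost without either parental library or either clone C1 library (0.0597 to 0.185).

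In KMS12PE, ZFP91 was at 138 and 135 CPM in clone A, 134 and 130 CPM in clone C and 162 and 153 CPM in clone D, against 133 and 142 CPM in parental KMS12PE. Both clone D libraries were above every other library of the line. The mean difference was 0.04 (95% CI -0.11 to 0.20), and clone D stood at 0.19 (SE 0.08, adjusted p = 0.26). The response in KMS12PE minus that in KMS27 was 0.66 (95% CI 0.41 to 0.91, adjusted p = 0.00193). ZFP91 overlaps the readthrough gene ZFP91-CNTF on its strand and an antisense gene, and reads they share cannot be told apart.

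The genes around ZFP91 and DDB1, which both lie on chromosome 11, were lower in the KMS27 clones too. Over 661 other tested genes of chromosome 11 the median mean difference was -0.46, with 349 of those other than ZFP91 called lower and 16 called higher. ZFP91 minus that median was -0.15 and DDB1 minus it was 0.17. Within 5 Mb of ZFP91 (58579111 to 58621042, plus strand) 76 genes had a median of -0.50, with 49 called lower and 0 called higher. Within 5 Mb of DDB1 (61299451 to 61342596, minus strand) 158 genes had a median of -0.53. By clone, B5 had a chromosome 11 median of -0.59 beside ZFP91, C1 of -0.36 and C5 of -0.38. In KMS12PE the chromosome 11 median was 0.0075. The 11 tested genes within 5 Mb of CRBN had a median of -0.25 in KMS27 and its chromosome one of -0.07, while CRBN was at 0.07.

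**Figure D3:**
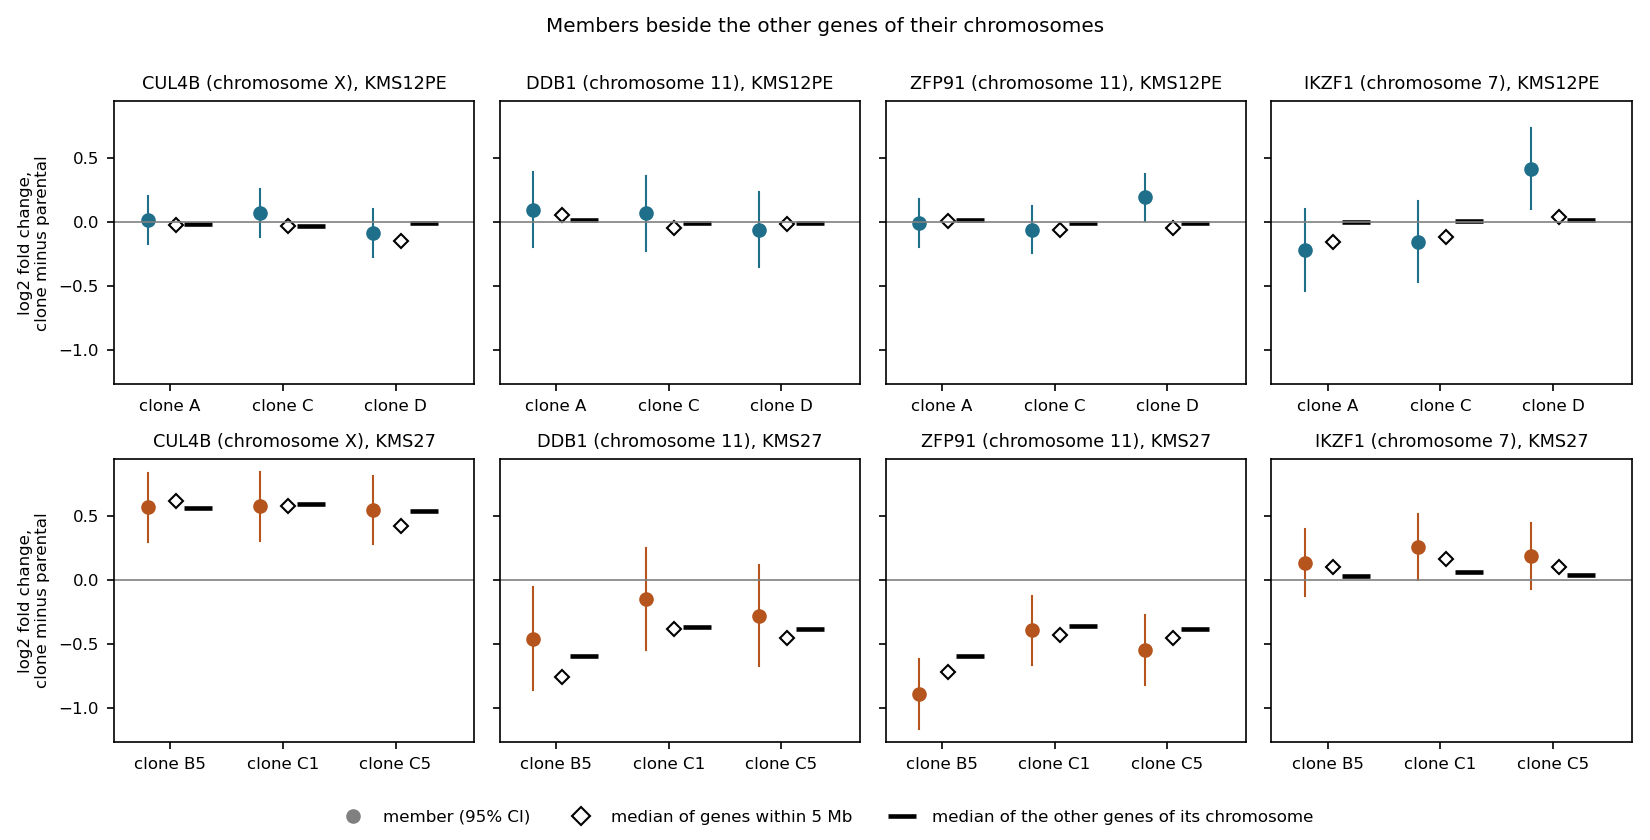
Difference from parental, on the log2 scale, of CUL4B, DDB1, ZFP91 and IKZF1 (points with 95% confidence intervals) in each clone of KMS12PE (top) and KMS27 (bottom), beside the median of the genes within 5 Mb (diamonds) and of the other tested genes of the chromosome (bars). In KMS27 the chromosome X median is 0.54 to 0.59 and the chromosome 11 median beside ZFP91 is -0.59 to -0.36, while the medians in KMS12PE lie near 0.

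IKZF1, which encodes Ikaros, was higher in clone D than in the other clones of KMS12PE. It was at 43.5 and 39.5 CPM in clone A, 47.7 and 39.1 CPM in clone C and 66.6 and 62.4 CPM in clone D, against 53.4 and 43.0 CPM in parental KMS12PE. The 2 clone D libraries were the highest of the line, and clones A and C overlapped with parental cells. The test among the 3 clones passed (adjusted p = 0.0305, with 8.22% of genes called), and IKZF1 was the 1 of 10 genes to do so. Clone A was lower than clone D by 0.64 (SE 0.14, adjusted p = 0.0259, with 6.77% of genes called), and clone C was lower than clone D by 0.57 (SE 0.14, adjusted p = 0.0339, with 8.58% called). Against parental cells clone D stood at 0.42 (SE 0.14, adjusted p = 0.151), clone A at -0.22 and clone C at -0.15, and the mean of the 3 was 0.02 (95% CI -0.25 to 0.28).

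In KMS12PE the libraries numbered alike resembled each other, and with the replicate number as a block clone D minus parental passed for IKZF1 (0.43, adjusted p = 0.00211, with 16.4% of genes called in that fit). The block lowered the adjusted p among clones to 4.06e-06 for IKZF1 and to 0.0234 for ZFP91, so that 2 of 10 genes were called where 26.1% of all genes were. Without the block, the IKZF1 test among clones was lost without either clone A library, replicate 3 of clone C or either clone D library (adjusted p = 0.0518 to 0.125). The difference of clone A from clone D was lost without a library of either clone (0.0615 to 0.189), and that of clone C from clone D without either clone A library, either clone D library or replicate 3 of clone C (0.0539 to 0.205). The 8 tested genes within 5 Mb of IKZF1 (50304068 to 50405101 on chromosome 7, plus strand) had a median of -0.15 in clone A, -0.11 in clone C and 0.04 in clone D, and 560 others of the chromosome had medians of 0.0054, 0.0099 and 0.02 in those clones.

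In KMS27, IKZF1 was at 78.6 and 91.9 CPM in clone B5, 88.0 and 97.9 CPM in clone C1 and 91.5 and 85.4 CPM in clone C5, against 76.2 and 79.0 CPM in parental KMS27. Of the 6 clone libraries 5 lay above both parental libraries. The mean difference was 0.20 (95% CI -0.02 to 0.41, adjusted p = 0.167), with clone B5 at 0.14, C1 at 0.26 and C5 at 0.19. Without the first clone B5 library it passed in the mean (0.24, adjusted p = 0.0349) and in clone C1 (0.27, adjusted p = 0.0436), in a fit that called 40.6% of genes in the mean and 35.9% in clone C1. The difference between the responses of the lines was -0.17 (95% CI -0.51 to 0.17, adjusted p = 0.529).

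IKZF3, which encodes Aiolos (chromosome 17, 39757715 to 39864188, minus strand), varied widely between libraries of 1 population. In KMS12PE it was at 167 and 218 CPM in clone A, 171 and 233 CPM in clone C and 142 and 228 CPM in clone D, against 183 and 193 CPM in parental KMS12PE. The library numbered 3 was above the library numbered 1 in all 4 populations, by up to 1.61-fold in clone D. The mean difference was 0.04 (95% CI -0.39 to 0.47), with no clone called. In KMS27 it was at 408 and 183 CPM in clone B5, 274 and 303 CPM in clone C1 and 398 and 453 CPM in clone C5, against 366 and 295 CPM in parental KMS27. The 2 libraries of clone B5 differed by 2.23-fold. Ribosomal-protein genes took 7.08% and 9.77% of the counts in those 2 libraries, 10.1% and 10.6% in clone C1, 7.46% and 8.1% in clone C5, and 8.29% and 10.1% in parental KMS27. The part of that share in the IKZF3 values was not tested.

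The mean difference of IKZF3 in KMS27 was 0.0015 (95% CI -0.56 to 0.56, or 0.679 to 1.47 times the parental level). Clone B5 stood at -0.16, clone C1 at -0.20 and clone C5 at 0.36, with no adjusted p under 0.05. Without the first library of clone B5 that clone stood at -0.84 (adjusted p = 0.00149, with 35.1% of genes called), and without the second it stood at 0.30 (adjusted p = 0.187), so that its sign changed with the library left out. Clone C5 passed without the first clone B5 library (0.36, adjusted p = 0.0434) and without the second (0.37, adjusted p = 0.0418), in fits that called 30.8% and 30.5% of genes. The difference between the responses of the lines was 0.04 (95% CI -0.72 to 0.80). Counts of IKZF1 per 100 counts of IKZF3 were 19.3 and 50.3 in the libraries of clone B5 and 20.8 and 26.8 in parental KMS27. In KMS12PE they were 47 and 27.4 in clone D and 29.1 and 22.3 in parental cells.

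CSNK1A1 (chromosome 5, 149492197 to 149551552, minus strand) and GSPT1 (chromosome 16, 11868128 to 11916082, minus strand, with antisense genes across it) did not pass in any clone. CSNK1A1, casein kinase 1 alpha, a lenalidomide substrate best known in myelodysplastic syndrome, averaged 271 ± 16 CPM in KMS12PE clones and 264 ± 4.0 CPM in parental KMS12PE (SD, n = 3 clones and 2 libraries). It averaged 129 ± 1.2 CPM in KMS27 clones and 133 ± 9.5 CPM in parental KMS27. Its mean differences were 0.03 (95% CI -0.17 to 0.24) and -0.05 (95% CI -0.25 to 0.16). GSPT1, a translation termination factor that other cereblon modulators degrade, averaged 578 ± 33 CPM in KMS12PE clones and 579 ± 37 CPM in parental cells, with a mean difference of -0.0052 (95% CI -0.19 to 0.18). In KMS27 it averaged 310 ± 41 CPM in clones and 326 ± 22 CPM in parental cells, with a mean difference of -0.08 (95% CI -0.36 to 0.20). The second clone B5 library, at 409 CPM, was the highest of the KMS27 libraries for GSPT1. Without the first clone B5 library, the test among the KMS27 clones passed for GSPT1 (adjusted p = 0.00956), RBX1 (0.0247) and IKZF3 (0.000496), 3 of 10 genes where 32% of all genes were called. Without the second it passed for DDB1 (0.0105), IKZF3 (0.0109) and ZFP91 (0.021), 3 of 10 genes where 28.6% were called.

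In KMS12PE, then, 0 of 10 genes were called in the mean of the clones, against 1.47% of the 12279 genes tested, and edgeR gave 0 of 10 at an unadjusted p under 0.05. Each clone against parental cells also had 0 of 10 called, with a background of 0.448% in clone A, 1.78% in clone C and 5.16% in clone D. Among those single-clone tests IKZF1 and ZFP91 in clone D had an unadjusted p under 0.05, and DESeq2 called 0. These fits had no replicate block. With it, edgeR called IKZF1 in clone D (adjusted p = 0.00211, where 16.4% of genes were called). The variation between libraries of a population beyond counting noise that edgeR estimated, as a coefficient, came to 11.9% for KMS12PE and 14.3% for KMS27. It may be technical.

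The parental populations of the lines differed in most of these genes. Parental KMS12PE minus parental KMS27, fitted over all 16 libraries, passed for 8 of 10 genes, where 64% of 11623 genes passed. The line cannot be told apart from the depth and preparation of its table. CUL4A was higher in KMS12PE by 1.68 (SE 0.09, adjusted p = 2.21e-09), the largest of the 10 differences, followed by CSNK1A1 at 0.82 (adjusted p = 3.5e-05), GSPT1 at 0.66 (adjusted p = 0.00064) and CUL4B at 0.26 (adjusted p = 0.0405). IKZF3 was lower in KMS12PE by 0.98 (SE 0.31, adjusted p = 0.0126), ZFP91 by 0.96 (SE 0.10, adjusted p = 1.91e-06), IKZF1 by 0.86 (SE 0.14, adjusted p = 0.000105) and RBX1 by 0.62 (SE 0.17, adjusted p = 0.00663). CRBN, at 0.14 (95% CI -0.16 to 0.45, adjusted p = 0.397), and DDB1, at -0.14 (95% CI -0.50 to 0.22, adjusted p = 0.487), did not pass. The CUL4B difference was lost without any 1 of the 4 parental libraries (adjusted p = 0.0702 to 0.138) and without any 1 library of clones A or C of KMS12PE (0.0505 to 0.0519). That of IKZF3 was lost without either parental KMS12PE library or the first of KMS27 (0.0536 to 0.0801), and that of RBX1 without the first of KMS12PE or the second of KMS27 (0.0855 and 0.0948).

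Per kilobase of merged exon, on the joint scaling, the levels spanned more than a factor of 10 between genes. In parental KMS12PE the order was GSPT1 (74.5 and 67.1 CPM per kb), CUL4A (49.7 and 49.8), DDB1 (38.3 and 34.1), CSNK1A1 (34.2 and 32.9), ZFP91 (25.1 and 26.4), IKZF3 (18.1 and 18.8), CUL4B (12.6 and 12.9), RBX1 (10.3 and 13.4), CRBN (4.23 and 5.38) and IKZF1 (4.82 and 3.83). In parental KMS27 the order was ZFP91 (50.4 and 50 CPM per kb), GSPT1 (42.7 and 46.7), DDB1 (38.2 and 41.4), IKZF3 (40.5 and 32.4), CSNK1A1 (18.1 and 19.9), RBX1 (15.9 and 20.8), CUL4A (15.8 and 15.2), CUL4B (10.5 and 10.7), IKZF1 (7.7 and 7.94) and CRBN (4.04 and 4.68). Neighbours whose libraries overlapped were DDB1 with CSNK1A1, CUL4B with RBX1 and CRBN with IKZF1 in KMS12PE, and DDB1 with IKZF3 and CSNK1A1 with RBX1 in KMS27. CRBN was at the low end in both lines, under its adaptor DDB1 in every parental library. Merged exon lengths were 8068 bases for CRBN and 13950 bases for DDB1 and ignore which transcripts were present.

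**Figure D4:**
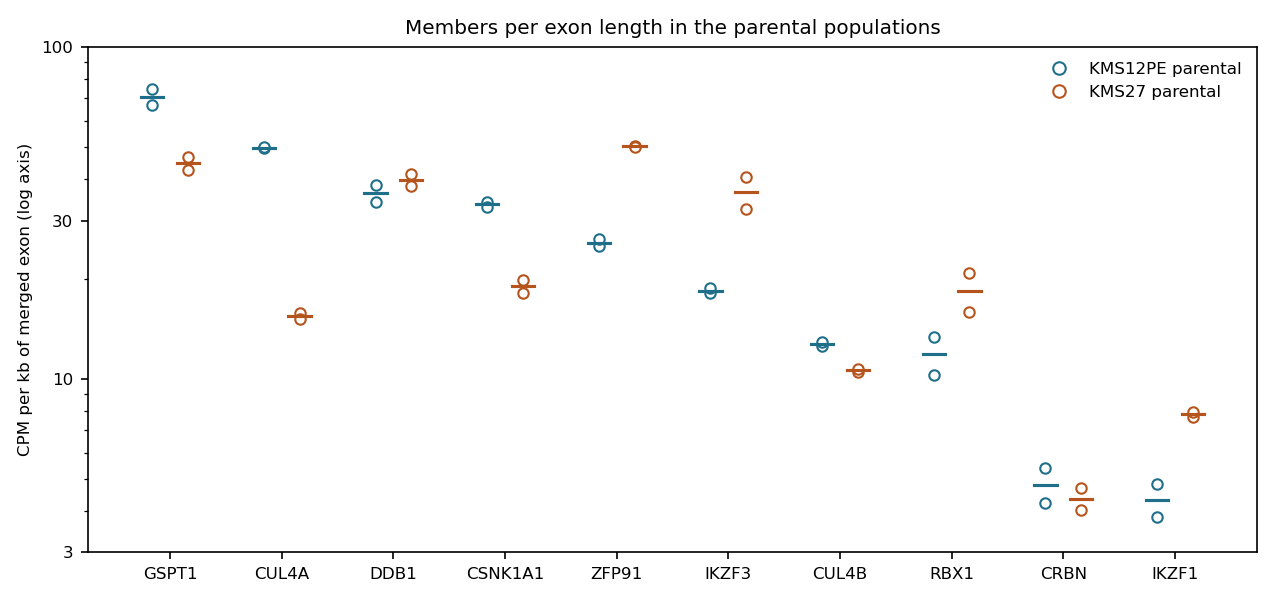
Levels of the 10 genes in the 4 parental libraries, as CPM per kilobase of merged exon on a log axis, ordered by parental KMS12PE. Open points are libraries and bars their mean, with KMS12PE left of KMS27. CUL4A is at 49.7 and 49.8 in KMS12PE and at 15.8 and 15.2 in KMS27, and CRBN is at 4.04 to 5.38 in all 4.

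By likeness of log2 CPM centred on each line over the 16 libraries, the genes closest to CRBN were MRPL46 (Pearson r = 0.775), LINC00339 (0.755) and THAP7-AS1 (0.729). Closest to IKZF1 were TBC1D1 (0.911), ZBED3 (0.91) and SUGT1 (0.893), and closest to IKZF3 were NEURL4 (0.941), STARD9 (0.937) and CLCN6 (0.936). These r values were the highest among 11623 genes, describe libraries that share depth and preparation, and carry no test.

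Next came the machinery that activates and resets the ligase. Of 33 genes for neddylation, the COP9 signalosome, CAND exchange factors and the ubiquitin-carrying enzymes of CRL4, all 33 were tested in KMS12PE and 0 were called in the mean of the clones, with 3 at an unadjusted edgeR p under 0.05 (median -0.0085, against -0.0029 over all genes, of which 1.47% were called). By clone, GPS1, a COP9 subunit, fell in clone C to 51.6 CPM against 96.2 CPM in parental cells (-0.90, adjusted p = 0.001). GPS1 lies on chromosome 17, where 58 of 696 tested genes other than IKZF3 (8.33%) were called lower in clone C. Of all genes, 1.78% were called in that clone. Whether GPS1 moved with its chromosome was not tested. In clone D, CAND2, a cullin exchange factor, rose by 1.07 (13.7 CPM against 6.5 CPM in parental cells, adjusted p = 0.0168), and NAE1, a subunit of the NEDD8-activating enzyme, fell by 0.49 (adjusted p = 0.0226), a call that was lost with DESeq2 (adjusted p = 0.0623) and without any 1 of the 4 libraries compared (0.0636 to 0.156). In KMS27, 3 of 32 were called lower and 0 higher (median 0.04, against -0.01 over all genes), where 25.8% of all genes were called, and 8 of 32 had an unadjusted edgeR p under 0.05. These were COPS7A, a COP9 subunit, at -0.45 (adjusted p = 0.0102), UBE2G1, a ubiquitin-conjugating enzyme that extends chains on cereblon substrates, at -0.39 (97.9 CPM in clones and 125 CPM in parental cells, adjusted p = 0.0137), and NAE1 at -0.33 (adjusted p = 0.0229). By clone, UBE2G1 was called in C5 alone, with C5 at -0.84 (adjusted p = 0.00139), B5 at -0.37 (adjusted p = 0.0507) and C1 at 0.03 (adjusted p = 0.892). COPS7A and NAE1 were called in B5 and C5. Of 6 other cullins, 0 were called in the mean of either line, and 0 had an unadjusted edgeR p under 0.05.

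Of 24 other DDB1-CUL4 substrate receptors tested, 0 were called in KMS12PE (0 at an unadjusted edgeR p under 0.05), where 1.47% of all genes were called. In KMS27 4 were called higher and 2 lower, or 6 of 24 where 25.8% of all genes were called (median -0.01). The 4 with the smallest adjusted p there were DTL, a receptor active in DNA replication, at 0.57 (adjusted p = 0.00699), AMBRA1, the receptor for D-type cyclins, at -0.36 (adjusted p = 0.0137), WDTC1 at 0.44 (adjusted p = 0.0363) and DCAF5 at 0.28 (adjusted p = 0.0428). Chromosomes 11 and X were shifted in KMS27, and whether these receptors moved with the other genes of their chromosomes was not tested. DTL was called in all 3 clones. AMBRA1 was called in B5 (-0.70, adjusted p = 0.0023) and not in C1 (-0.18) or C5 (-0.21), WDTC1 in C1 (0.76, adjusted p = 0.00979) and not in B5 (0.22) or C5 (0.34), and DCAF5 in B5 (0.45, adjusted p = 0.0167) and not in C1 (0.13) or C5 (0.26). Of 4 tested drug-independent cereblon partners, 0 were called in either line, also at an unadjusted edgeR p under 0.05.

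Of 17 other reported neosubstrates tested in KMS27, 2 were called higher and 4 lower, where 25.8% of all genes were called (median -0.20). In KMS12PE 0 of 17 were called, where 1.47% of all genes were (median 0.04, with 1 at an unadjusted edgeR p under 0.05). TP63, a p53-family transcription factor reported as a thalidomide neosubstrate, rose in KMS27 clones, at 109 CPM in clone B5, 15.3 CPM in clone C1 and 48.6 CPM in clone C5 against 11.1 CPM in parental cells (mean 1.96, SE 0.10, adjusted p = 5.71e-06). Its response differed between the lines (-2.14, adjusted p = 9.61e-08). ZNF827 fell to 12.3 CPM in clones, against 24.1 CPM in parental cells (-0.97, adjusted p = 0.00111), RAB28 fell by 0.59 (adjusted p = 0.00271) and DTWD1 by 0.55 (adjusted p = 0.00819), and TP63, ZNF827, RAB28 and DTWD1 were each called in all 3 clones. Of 10 relatives of the substrates, 0 were called in KMS12PE in the mean, also at an unadjusted edgeR p under 0.05, and CSNK1D, another casein kinase, fell in clone C by 0.77 (adjusted p = 0.0203). CSNK1D, like GPS1, lies on chromosome 17, where 8.33% of tested genes were called lower in clone C. In KMS27 3 of 10 were called, where 25.8% of all genes were. CSNK1E rose by 0.31 (adjusted p = 0.0326), CSNK1G2 fell by 0.30 (adjusted p = 0.0328) and CSNK1D rose by 0.28 (adjusted p = 0.0448), while the Ikaros relatives IKZF2 and IKZF5 were not called. By clone, CSNK1E was called in C1 and C5, CSNK1G2 in B5 and CSNK1D in C5.

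Genes downstream of IKZF1 and IKZF3 in myeloma, or reported to bypass their loss, included KLF2. This transcription factor fell in KMS27 to 1.83 CPM in clones, against 15.4 CPM in parental cells (-3.24, SE 0.24, adjusted p = 3.35e-05), and it was called lower in B5, C1 and C5 alike. Clone D of KMS12PE had more KLF2, which rose by 1.32 (18.3 CPM against 7.29 CPM in parental cells, adjusted p = 0.0263), and the response differed between the lines (3.43, adjusted p = 6.64e-05). MYC fell in the KMS27 mean by 0.63 (76.7 CPM in clones and 114 CPM in parental cells, adjusted p = 0.000984). It was called in clone B5 (52.4 CPM, -1.12, adjusted p = 0.000247) and clone C5 (71.4 CPM, -0.67, adjusted p = 0.00317) and not in clone C1 (106 CPM, -0.10, adjusted p = 0.527), and in KMS12PE it stood at -0.16 (adjusted p = 0.77). IRF4, the plasma cell factor that falls when IKZF1 and IKZF3 are degraded, was not called in either line, at 1050 CPM in clones and 952 CPM in parental cells of KMS12PE and 1700 CPM in clones and 1800 CPM in parental cells of KMS27. RUNX1 rose in the mean of both lines, by 0.70 in KMS12PE (adjusted p = 0.00537) and, for KMS27, by 0.46 (adjusted p = 0.0192), with clone D of KMS12PE at 1.44 (adjusted p = 7.92e-05) and clone C at 0.61 (adjusted p = 0.0195). In KMS27 RUNX1 was called in B5 and C1. ETV4 rose in the KMS27 mean by 0.42 (adjusted p = 0.0177) and was called in C1 alone. The list had 1 of 7 tested genes called higher in KMS12PE (median 0.13), where 1.47% of all genes were called, and 3 higher and 2 lower of 8 in KMS27 (median 0.03), where 25.8% were.

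Among these pathway genes, calls that held without any 1 library were GPS1 in clone C, RUNX1 in clone D, and TP63, ZNF827, RAB28, KLF2 and MYC in KMS27. In KMS12PE the mean call of RUNX1 was lost without either parental library (adjusted p = 0.0835 to 0.0904), and those of CSNK1D and RUNX1 in clone C and of KLF2, CAND2 and NAE1 in clone D were lost without at least 1 parental library (0.0636 to 0.161) and without at least 1 library of their own clone (0.0628 to 0.146). In KMS27 the mean calls of UBE2G1, COPS7A, NAE1, DTL, AMBRA1, WDTC1, DCAF5, DTWD1, ETV4 and the 3 casein kinases were lost without either parental library (some also without 1 clone library), and that of RUNX1 without the second parental library or the first clone C5 library. With counts summed per population, 8 of 14088 genes were called in the KMS27 mean and 0 of 12279 in the KMS12PE mean, so that this setting could keep hardly any call. In it all the mean calls named here for KMS27 were lost (adjusted p = 0.0922 to 0.683), as was RUNX1 in KMS12PE (0.999).

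**Figure D5:**
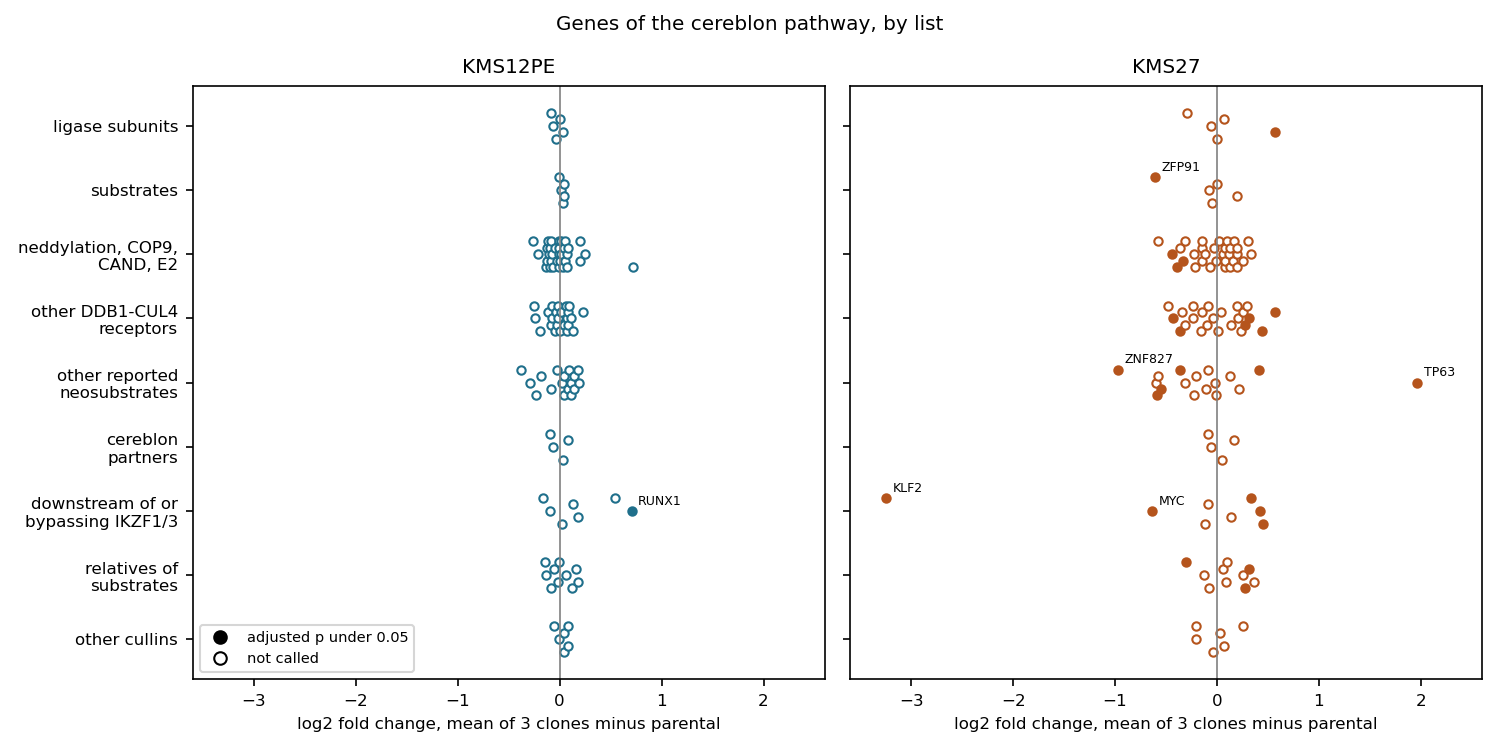
Difference between the mean of the 3 clones and parental cells, on the log2 scale, for the tested genes of each list in KMS12PE (left) and KMS27 (right). Filled points have an edgeR adjusted p under 0.05, and called genes beyond 0.6 are named. RUNX1, at 0.70, is called in KMS12PE, and KLF2, at -3.24, and TP63, at 1.96, lie furthest out in KMS27.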

How the data were processed

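Gene-level read counts of 16 libraries were used as the authors deposited them, in 1 table per line. Per the labels' protocols, libraries were prepared from poly-A RNA, with 200 ng of RNA as input, and per the submitters' processing notes the build was hg38. The aligner, counter, annotation and strandedness were not given in the sources used here. All genes in a table reached 5 counts in 4 or more of its 8 libraries.

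Each line was fitted with edgeR 4.0.16 (R 4.3.3, limma 3.58.1), with genes filtered by filterByExpr, TMM scaling, 1 mean per population and the quasi-likelihood test. All p-values are from this test unless another is named, with Benjamini-Hochberg adjustment over all tested genes and a threshold of 0.05. Confidence intervals are 95% intervals. Differences between the lines came from 1 fit of 11623 genes, those listed in both lines that passed the filter over all 16 libraries. The steps were tested on simulated data. Positions and exon lengths are from GENCODE on GRCh38, and promoters from RefSeq on GRCh38.p14.

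The 10 genes, the lists and the tests were chosen with earlier results of these data known. All 10 genes are named, and of other lists the called genes with the smallest adjusted p, up to 4 per list and contrast. IRF4, IKZF2 and IKZF5 were named outside that rule, after their values were seen. Same-numbered KMS12PE libraries deviated together (r = 0.254 to 0.537 over 6 pairs of populations), so the numbers were taken to pair them. The main fits still had no replicate block and ignore this pairing, and the block was fitted as an alternative. In KMS27 r was 0.0597 to 0.444, and over 0.1 in 3 of 6 pairs. Alternatives were RLE size factors, DESeq2 1.42.0, no filter on low counts, a replicate block, counts summed per population, and leaving out each library. DNA sequencing data were not used here.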

Additional observations from a re-analysis of the deposited data

Results flagged for a closer look

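The difference between the mean of the clones and parental cells was not the same in the lines for 2 of the 10 genes, by the test of that difference in the joint edgeR fit. For CUL4B, the response in KMS12PE minus that in KMS27 was -0.5552 on the log2 scale (adjusted p = 0.00744), with 0.0021 in KMS12PE and 0.565 in KMS27. For ZFP91 it was 0.6613 (adjusted p = 0.00193), with 0.04 in KMS12PE and -0.61 in KMS27. Both calls held with RLE size factors, DESeq2, no filter on low counts and the replicate block. Adjusted p from these tests was up to 0.00744 for CUL4B and 0.00235 for ZFP91. Leaving out single libraries, the difference ranged from -0.59 to -0.52 for CUL4B and from 0.62 to 0.71 for ZFP91. Counts summed per population, with which both KMS27 mean calls were lost, were not fitted for this difference. The other tested genes of chromosome X had a median difference of -0.02 in KMS12PE and 0.58 in KMS27, and those of chromosome 11 of 0.0075 in KMS12PE and -0.46 in KMS27.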

How the results depend on the processing

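Each single result was recomputed under several alternatives, and each pair of a result and an alternative was counted. Of these pairs, 1331 kept direction and call, 137 lost a call, 20 gained one and 53 changed sign. The 1331 include differences called in neither fit, and the tests among clones have no direction. Calls over all genes moved with the setting too, also with the library left out. Among the KMS27 clones 13.7% of all genes were called in the main fit, 19.1% with DESeq2 and 2965 of 14088 with the block. Among the KMS12PE clones the share was 8.22%, and 26.1% with the block. In KMS12PE clone D it was 5.16%, and 16.4% with the block. In the KMS27 mean it was 25.8%, and 0.0568% with counts summed per population. Among the 10 genes, KMS12PE calls against parental cells numbered 0 over the 3 clones, and 1 with the replicate block. Among the KMS12PE clones there was 1 call, with 2 under the block and 0 to 1 without single libraries. For KMS27, the 2 calls in the mean became 0 with counts summed per population and 1 to 3 without single libraries, and the 6 calls over the single clones became 1 to 10. Among the KMS27 clones 0 calls became 1 with DESeq2, 1 with the block and 0 to 3 without single libraries. The 8 calls between parental lines became 5 to 8 without single libraries.

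The replicate block changed further calls in KMS27, where same-numbered libraries deviated together less evenly (r = 0.0597 to 0.444 over 6 pairs of populations). These were DDB1 in clone B5 (-0.47, adjusted p = 0.0406) and ZFP91 among the clones (0.0329). Over all genes the block gave 798 calls in the KMS12PE mean, against 181 without it.

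The changes of sign all concerned differences that were not called. IKZF3 in the KMS27 mean was -0.0013 with RLE size factors and -0.0014 with DESeq2, and CRBN in clone C5 was -0.0083 with either. Leaving out single libraries, the KMS12PE mean ranged from -0.24 to 0.12 for CRBN, -0.0052 to 0.0735 for CSNK1A1, -0.018 to 0.034 for CUL4B, -0.032 to 0.12 for DDB1, -0.067 to 0.069 for GSPT1, -0.13 to 0.19 for IKZF1, -0.091 to 0.14 for IKZF3 and -0.24 to 0.16 for RBX1. CRBN ranged from -0.34 to 0.022 in clone A, -0.25 to 0.11 in clone C and -0.15 to 0.21 in clone D, ZFP91 from -0.052 to 0.038 in clone A, and IKZF1 from -0.30 to 0.016 in clone C. The KMS27 mean ranged from -0.025 to 0.19 for CRBN, -0.11 to 0.031 for CSNK1A1, -0.017 to 0.038 for CUL4A, -0.22 to 0.17 for IKZF3 and -0.23 to 0.15 for RBX1. IKZF3 ranged from -0.84 to 0.30 in clone B5, and CRBN from -0.089 to 0.20 in clone C1 and -0.10 to 0.12 in clone C5. The difference between the lines ranged from -0.31 to 0.038 for CRBN, -0.33 to 0.0034 for IKZF1 and -0.12 to 0.28 for IKZF3, and that between parental cells from -0.043 to 0.30 for CRBN. The cause of these changes was not tested. With 2 libraries per population, 1 library often decides a call, and a lone library is then assumed to vary like the others.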
